A study of Spinacia oleracea with 6 samples.

Results

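Transcripts of 7 nuclear genes of photosystem II were followed in spinach, Spinacia oleracea, grown under heat or under a cooler control regime. The genes were taken by their NCBI Gene numbers and make up 7 of 32450 genes in the deposited tables. They are PSBO (GeneID.110801892), PSBP (GeneID.110783572) and PSBQ (GeneID.110789702), which encode the extrinsic oxygen-evolving proteins, PsbW (GeneID.110783856) and PSBR (GeneID.110805433), which encode small subunits, psbS (GeneID.110795972), the energy quencher, and lhcb1.3 (GeneID.110802314), an antenna protein. All gene numbers carried these names in the RefSeq gene table of the BTI_SOV_V1 assembly, which places them on numbered nuclear chromosomes. Heat plants had days of 35 °C and nights of 25 °C, control plants had days of 20 °C and nights of 15 °C, and both regimes lasted 4 days in an illuminated incubator. Total RNA was sequenced from 3 heat libraries and 3 control libraries, with the aim of finding genes tied to resilience to heat. The labels give no cultivar, plant age or tissue, and do not say whether the libraries of a regime came from separate plants, so the p-values reflect the scatter among these libraries alone, which could be technical.

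Photosystem II is the pigment-protein complex of the thylakoid membrane that uses light to split water into oxygen, protons and electrons. On its lumenal side, PsbO, PsbP and PsbQ shield and stabilise the manganese cluster at which water is oxidised. Lhcb1 proteins form much of the trimeric antenna that passes excitation to the reaction centre, and PsbS triggers the release of excess excitation as heat when the lumen becomes acidic. Photosystem II is also known as one of the heat-sensitive parts of the leaf.

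Library totals ranged from 42.3 to 48.0 M counts in heat and from 48.4 to 56.8 M in control, and the 10 most abundant genes took 8.04% to 9.62% of the counts in heat libraries and 12.2% to 16.1% in control libraries. Over 20145 tested genes, 2339 were higher and 2735 lower in heat (edgeR's quasi-likelihood test, adjusted p below 0.05). Scaling by library totals alone gave 6288 higher and 1471 lower genes and moved the median log2 fold change over tested genes from 0.01 to 0.47. The 4 genes set as a check of green tissue were read in every library, rbcS2, of Rubisco, with at least 243 FPKM. They were also lower in heat, with log2 fold changes of -3.69 for rbcS2 and -3.56 for RA, Rubisco activase, both beyond that of lhcb1.3 given below, -2.62 for PETE, plastocyanin, and -2.08 for GOX, glycolate oxidase. Their part in the results that follow was not tested. In bulk RNA, fewer photosynthetic cells and less RNA per cell cannot be told apart.

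All 7 genes fell in heat, with log2 fold changes from -3.26 for lhcb1.3 to -1.16 for PSBR and a median of -1.77, against a median of 0.01 over all tested genes. A call of lower in heat was made for 13.6% of all tested genes (11.6% were called higher), and for 26.8% of the 1722 genes with a mean of at least 100 CPM, the abundance of most of these genes. None of the 7 genes overlapped between the regimes in CPM, which held in the lower direction for 22.3% of tested genes and for 35.2% of those with at least 100 CPM. CPM are counts on a common library scale (TMM), which corrects each library's total for the make-up of its RNA. The groups did not overlap in the deposited FPKM either, although FPKM are scaled by library totals alone. The share of all tested genes without overlap was not computed in FPKM, so this has no background beside it. Scaled by library totals alone in edgeR, 7.30% of tested genes were called lower.

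**Figure D1:**
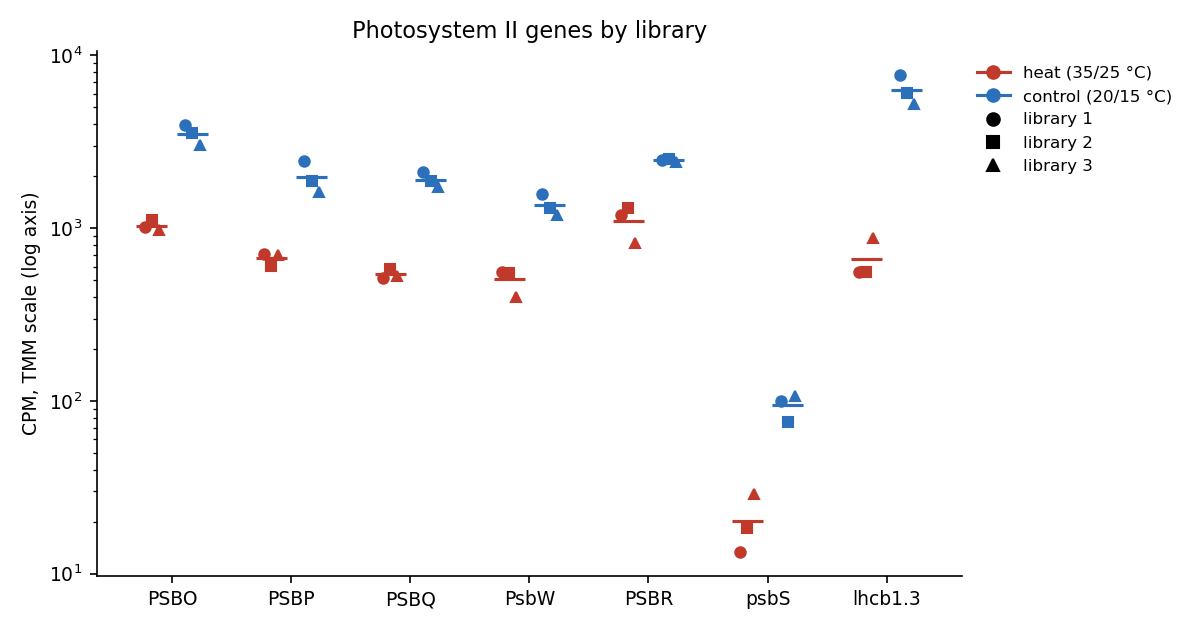
CPM of each gene on a log axis, with heat in red to the left of control in blue, 1 point per library and a bar at the mean of 3. Every heat point lies below every control point of the same gene, and lhcb1.3 shows the widest gap between the regimes.

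Among the oxygen-evolving proteins, all 3 genes fell, with log2 fold changes from -1.81 to -1.56. PSBO, whose product is the manganese-stabilising protein, had 1012, 1117 and 973 CPM in heat libraries 1 to 3, against 3978, 3569 and 3030 CPM in control libraries 1 to 3. The heat values lay close together, while control library 1 was the highest and control library 3 the lowest. The log2 fold change of PSBO was -1.77 (SE 0.20, adjusted p = 0.00183, edgeR), which is 3.41-fold lower. It was -1.32 when scaled by library totals alone (adjusted p = 0.00463, edgeR).

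PSBP encodes the oxygen-evolving protein that helps to hold calcium and chloride at the cluster, and PSBQ its partner in that role. PSBP had 706, 604 and 699 CPM in heat, against 2434, 1876 and 1625 CPM in control, and fell by 1.56 on the log2 scale (SE 0.22, adjusted p = 0.00360, edgeR). PSBQ had 517, 581 and 526 CPM in heat, against 2109, 1864 and 1727 CPM in control, and fell by 1.81 (SE 0.18, adjusted p = 0.00112, edgeR). As for PSBO, control library 1 was the highest and control library 3 the lowest for both genes. Between these genes the ratio shifted little, since the log2 difference of PSBO over PSBQ changed by 0.04 between heat and control (exact two-sided permutation p = 0.4, adjusted p = 0.4). For PSBO over PSBP the change was -0.22 (exact permutation p = 0.2, adjusted p = 0.25) and for PSBP over PSBQ 0.26 (exact permutation p = 0.2, adjusted p = 0.25), and the groups overlapped in all 3 of these ratios. With 3 libraries against 3 this permutation test cannot go below p = 0.1, and adjusted values here are over 10 pairs.

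PsbW and PSBR, the small subunits, had the smallest log2 fold changes of the 7. PsbW spans the membrane and in Arabidopsis helps to hold antenna and core together. It had 561, 554 and 399 CPM in heat, against 1570, 1306 and 1185 CPM in control, with a log2 fold change of -1.42 (SE 0.22, adjusted p = 0.00487, edgeR). Heat library 3 was the lowest of its group. On log2(FPKM + 1) with no filter on low values, limma did not call PsbW (log2 fold change -0.97, adjusted p = 0.0532).

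PSBR encodes a lumenal protein that in Arabidopsis is needed for stable binding of the oxygen-evolving proteins. Its CPM were 1186, 1308 and 824 in heat, against 2474, 2507 and 2418 in control. The control libraries thus nearly coincided on this scale, and heat library 3 again lay lowest. In FPKM the control libraries lay further apart, at 3728, 3577 and 3100. The log2 fold change was -1.16 (SE 0.23, adjusted p = 0.0120, edgeR), which is 2.23-fold lower, and it was -0.98 without heat library 3 (adjusted p = 0.0213). The PSBR call ended without control library 2 (log2 fold change -1.14, adjusted p = 0.0593) and with unfiltered log2(FPKM + 1) values in limma (log2 fold change -0.72, adjusted p = 0.247). Scaled by library totals alone, it was -0.71 (adjusted p = 0.0322). Over 17 alternatives the adjusted p ran from 2.69e-06 to 0.247 for PSBR and from 3.24e-09 to 0.0532 for PsbW.

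Relative to PsbW, PSBR was higher in every heat library than in any control library. The FPKM ratio of PSBR over PsbW was 2.23, 2.49 and 2.18 in heat, against 1.66, 2.02 and 2.15 in control. The lowest heat ratio and the highest control ratio lay close to each other. On the log2 scale the ratio differed by 0.25 (exact permutation p = 0.1, the smallest possible, adjusted p = 0.25).

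psbS was the least abundant of the genes and had the second largest fall. It had 13.4, 18.4 and 28.9 CPM in heat, against 99.8, 75.9 and 107 CPM in control. Heat library 3 was above the other heat libraries, yet below all control libraries. The log2 fold change was -2.22 (SE 0.30, adjusted p = 0.00332, edgeR), or 4.66-fold lower, and it was -2.57 without heat library 3 (adjusted p = 0.00298). It was -1.73 when scaled by library totals alone (adjusted p = 0.00679, edgeR). Of all tested genes, 4.01% had a log2 fold change as low as or lower than that of psbS.

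lhcb1.3, of the light-harvesting antenna, changed most. Its CPM were 559, 557 and 875 in heat, against 7740, 6042 and 5231 in control, 9.55-fold lower. Here too heat library 3 was the highest of its group. The log2 fold change was -3.26 (SE 0.30, adjusted p = 0.000871, edgeR), and 1.39% of tested genes had one as low. When scaled by library totals alone, the log2 fold change of lhcb1.3 was -2.79 (adjusted p = 0.00174, edgeR). Lhcb1 proteins are encoded by several near-identical genes in many plants, and the sources used here do not give how reads shared by such copies were counted, so the value of lhcb1.3 is uncertain to that extent. No further light-harvesting gene had a name in the reference table.

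**Figure D2:**
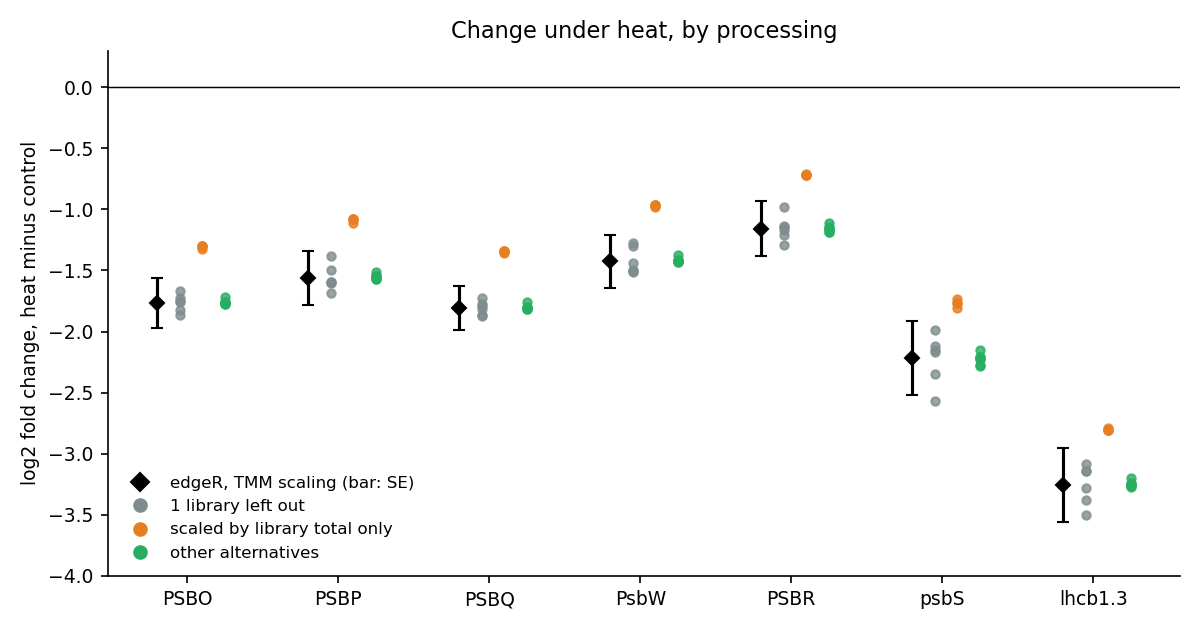
Log2 fold change of heat minus control for each gene, with the edgeR value and its SE as a black diamond and each alternative as a point. All points lie below 0, and those scaled by library totals alone, in orange, lie above the black diamonds.

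Heat library 3 thus stood apart from heat libraries 1 and 2 in opposite ways for different genes. It held the highest heat value of psbS and lhcb1.3 and the lowest of PsbW and PSBR, on the CPM and the FPKM scale. Within heat, the coefficient of variation of CPM was 39.1% for psbS, 27.6% for lhcb1.3, 22.7% for PSBR and 18.1% for PsbW, but 6.39% to 8.50% for the 3 oxygen-evolving genes. In control it was 1.82% for PSBR and 10.2% to 20.9% for the other genes. Counting error alone would give at most 3.07% in heat (psbS, with 744 to 1537 reads) and 1.54% in control, so the spread between libraries was larger than the counting error for every gene in both regimes.

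Levels of different genes were compared as FPKM, reads scaled by gene length and by library total. The lengths recovered from the tables ran from 607 bp for PSBR to 1266 bp for PSBO. In heat, PSBR stood first with 2122 ± 368 FPKM (SD, n = 3), above PSBO with 958 ± 30.0, PsbW with 921 ± 121, lhcb1.3 with 776 ± 265, PSBP with 743 ± 98.9 and PSBQ with 714 ± 37.0. In these 5 genes below PSBR, each overlapped its neighbour in the order, and psbS stood far below with 22.9 ± 10.3 FPKM.

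In control the order was led by lhcb1.3 with 5376 ± 1494 FPKM (SD, n = 3), followed by PSBR with 3469 ± 328, PSBO with 2393 ± 507, PSBQ with 1829 ± 329, PsbW with 1818 ± 404 and PSBP with 1606 ± 458. PSBO, PSBQ, PsbW and PSBP overlapped from neighbour to neighbour, while lhcb1.3 exceeded PSBR in all 3 libraries with no overlap. psbS was again last, with 76.1 ± 12.4 FPKM. Among all genes of the tables, lhcb1.3 took place 99 by mean FPKM in heat and place 20 in control, whereas PSBR took place 26 in heat and place 28 in control.

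**Figure D3:**
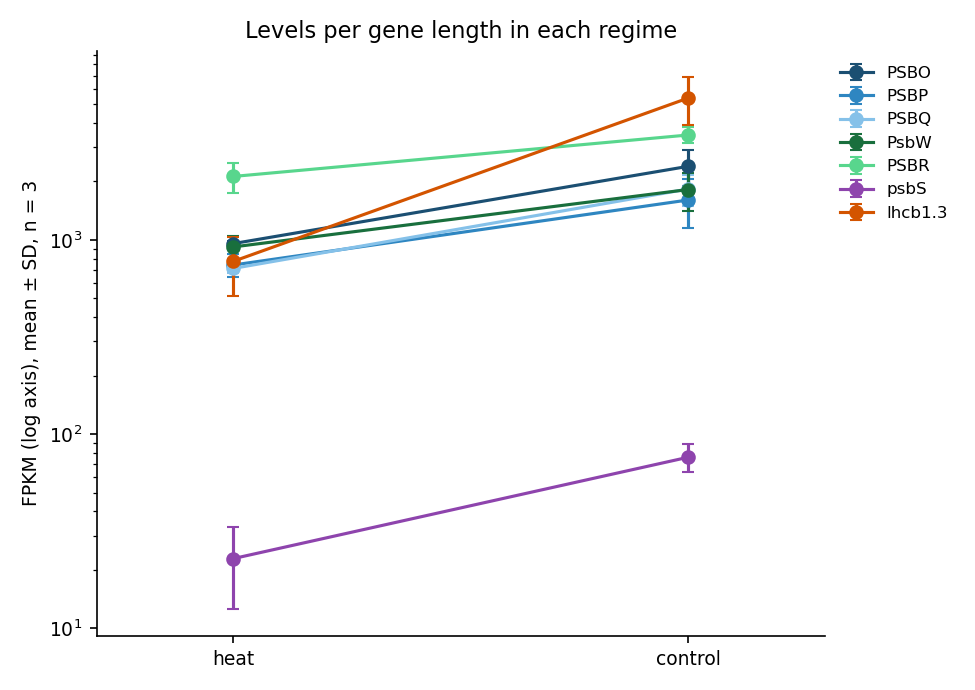
Mean FPKM of each gene with its SD (n = 3), on a log axis, in heat on the left and control on the right. The line of lhcb1.3 leads in control but not in heat and crosses those of PSBR, PSBO and PsbW, while psbS is last in both.

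Ratios within a library do not depend on how libraries are scaled to each other. lhcb1.3 had 0.807, 0.782 and 1.28 times the mean FPKM of PSBO, PSBP and PSBQ in heat libraries 1 to 3, against 2.93, 2.67 and 2.64 times in control libraries 1 to 3. The groups did not overlap, and the control ratios were nearly equal. On the log2 CPM scale this ratio was 1.56 lower in heat, a difference of -1.56 (exact permutation p = 0.1, the smallest possible, adjusted p = 0.25). A limma fit of the same ratio across all tested genes gave lhcb1.3 a difference of -1.56 (adjusted p = 0.00199). Its 95% interval was -2.29 to -0.84. In that fit 1.87% of genes were called lower relative to the 3 oxygen-evolving genes and 78.9% higher. With most genes called, adjustment changed the p-values little (unadjusted p = 0.00112 for lhcb1.3 and 0.108 for psbS, limma). Adjusted p-values of this fit are therefore not comparable with those of the edgeR fit.

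For the other genes the change relative to the oxygen-evolving proteins did not pass. In the limma fit the difference was -0.57 for psbS (95% interval -1.29 to 0.16, adjusted p = 0.125), 0.27 for PsbW (-0.26 to 0.81, adjusted p = 0.298) and 0.52 for PSBR (-0.16 to 1.21, adjusted p = 0.134). These intervals leave room for changes of either sign. The psbS value depended on single libraries in both directions. It was -0.87 without heat library 3 and passed (adjusted p = 0.0237), but -0.31 without heat library 1 (adjusted p = 0.385) and -0.37 without control library 3 (adjusted p = 0.313). The FPKM ratio of psbS to the oxygen-evolving mean was 0.0187, 0.0249 and 0.0408 in heat, against 0.0365, 0.0324 and 0.0521 in control, so that heat library 3 lay within the control range.

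Between antenna and quencher, the FPKM ratio of lhcb1.3 over psbS was 43.2, 31.3 and 31.4 in heat, against 80.4, 82.5 and 50.6 in control. The groups did not overlap, and on the log2 scale the ratio was lower in heat, with a difference of -0.996 (exact permutation p = 0.1, adjusted p = 0.25). Set against the mean of PsbW and PSBR, lhcb1.3 had a difference of -1.96 (exact permutation p = 0.1, adjusted p = 0.25) and psbS one of -0.97 (exact permutation p = 0.2, adjusted p = 0.25), and the psbS ratio overlapped between the regimes.

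**Figure D4:**
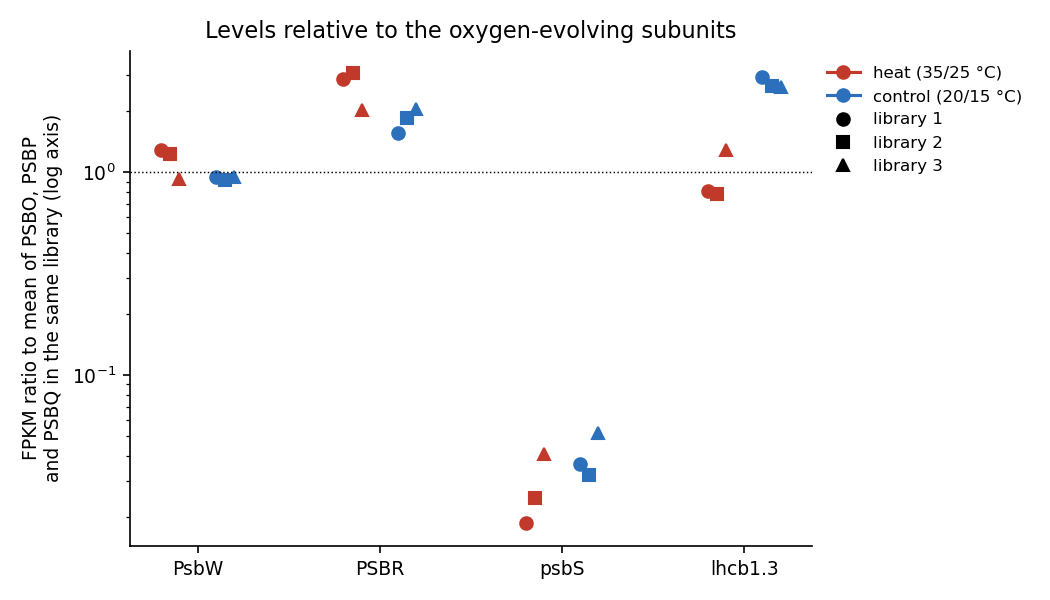
FPKM of 4 genes divided by the mean FPKM of PSBO, PSBP and PSBQ in the same library, on a log axis, heat in red to the left of control in blue. Of these 4, only the lhcb1.3 ratio separates the regimes, at 0.782 to 1.28 in heat and 2.64 to 2.93 in control.

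Together the 7 genes took 0.527%, 0.528% and 0.543% of all counts in heat libraries 1 to 3, against 1.87%, 1.49% and 1.19% in control libraries 1 to 3 (exact permutation p = 0.1, the smallest possible). The heat shares were nearly equal, whereas the control shares differed by library. lhcb1.3 alone supplied 12.3%, 11.7% and 20.2% of the reads of the 7 genes in heat, against 37.9%, 35.0% and 34.1% in control. Without lhcb1.3 the share was 0.454% ± 0.0179 in heat and 0.971% ± 0.187 in control (SD, n = 3 each, exact permutation p = 0.1).

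Other named genes of the light reactions were read from the same fit, in which 13.6% of all tested genes, and 26.8% of those with a mean of at least 100 CPM, were called lower. Of 6 nuclear photosystem I subunits, 6 fell, with a median log2 fold change of -1.61 and a range from -2.05 for psaL, which takes part in docking the antenna, to -1.27 for PSAF, which takes part in docking plastocyanin. Of 5 tested electron carrier genes, 4 were called lower, all nuclear, with PETE at -2.62 and PETH, the reductase that makes NADPH, at -1.14. The plastid-encoded petB, of the cytochrome b6f complex, was also negative at -1.08 but was not called (adjusted p = 0.260, edgeR), from at most 214 reads in a library.

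Both nuclear genes found by name for the chloroplast ATP synthase fell, with log2 fold changes of -2.30 for ATPG and -1.58 for AtpC. The plastid-encoded atpF had -1.77 (adjusted p = 0.119, edgeR), from at most 27 reads. For HEMB, an early enzyme of chlorophyll synthesis and the 1 gene of its list, the log2 fold change was -0.43 (adjusted p = 0.143). The lists were drawn by name patterns, which also took a serine synthesis gene (PSA) and glutamate synthase (Fd-GOGAT) and missed PSAE-1. These 3 were put right after their values had been seen, and as drawn 5 of 6 photosystem I and 5 of 6 carrier genes were called lower. None of the 15 plastid-encoded psb genes of the reference, such as psbA of the photosystem II core, had its gene number among the deposited genes.

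**Figure D5:**
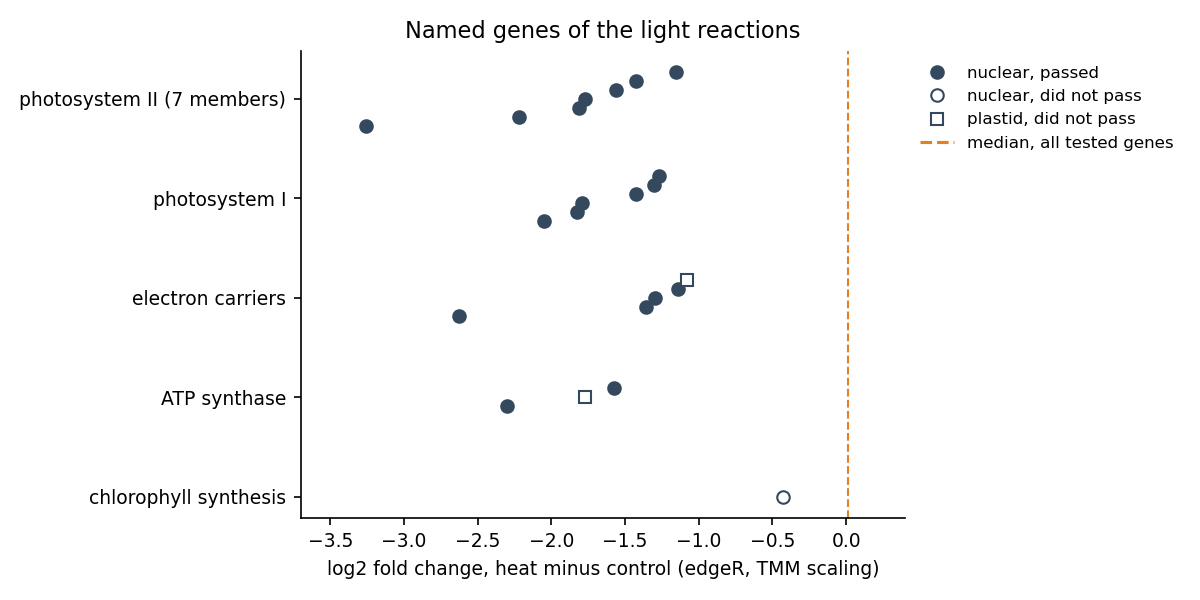
Log2 fold change of heat minus control for named genes by list, 1 point per gene, filled where it passed the threshold and square where plastid-encoded. The 7 photosystem II genes span -3.26 to -1.16, and the dashed line marks the median of all tested genes, 0.01.

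Named genes with the most similar profiles differed between the groups of photosystem II genes. Likeness was the root mean square difference of log2 CPM, each gene centred on its own mean, over the 6 libraries and among 112 named genes with a mean of at least 10 CPM. Closest to the mean of the 5 subunits PSBO, PSBP, PSBQ, PsbW and PSBR were psaD of photosystem I at 0.10, E37 of the inner chloroplast envelope at 0.11 and PSAE-1 of photosystem I at 0.13, where the median of the 112 genes was 0.53. By comparison PsbW lay at 0.10, PSBO at 0.12, PSBQ and PSBP at 0.15 and PSBR at 0.24 from that mean. psbS lay at 0.57 and lhcb1.3 at 0.91. The 5 subunits are part of that mean, whereas psbS and lhcb1.3 are not. The measure also takes in the difference between the regimes, so it is not separate from the log2 fold changes.

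Nearest to psbS were pgdP, a 6-phosphogluconate dehydrogenase, at 0.19, TPIP1, a triosephosphate isomerase, at 0.23 and LTP, a lipid transfer protein, at 0.26, against a median of 0.87. For lhcb1.3 they were L-AME at 0.17, gapA, of the Calvin-Benson cycle, at 0.18 and rbcS2 at 0.28, against a median of 1.29. Most genes in the tables have no name, and of 10762 genes at that level 3 lay closer to the 5 subunits than psaD, 5 closer to psbS than pgdP and 2 closer to lhcb1.3 than L-AME.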

How the data were processed

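Read counts per gene were deposited by the authors without normalization, as whole numbers, and FPKM values were computed by the authors. For all 23652 genes that could be checked, FPKM equalled the deposited count over a fixed gene length and the library total, within a relative tolerance of 1e-06. The tools DESeq 1.18.0, HTSeq 0.9.1 and HISAT2 2.0.4 are named per the submitters' processing notes, without roles. The genome build, the annotation, the strand setting and the handling of multi-mapping reads were not given in the sources used here. Of 30732 gene numbers, 25304 (82.3%) matched the BTI_SOV_V1 table.

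Counts of all 6 libraries were tested with edgeR 4.0.16 in R 4.3.3 (TMM scaling, filterByExpr, quasi-likelihood test, group as the only term, two-sided, Benjamini-Hochberg over 20145 genes, threshold 0.05). SE is the log2 fold change over the root of F. Depth is 42.3 to 56.8 M counts, and 1 read is worth 0.0176 to 0.0236 CPM before TMM. Ratios within libraries used log2 CPM with a prior count of 2, exact permutation tests (scipy 1.17.1) and limma 3.58.1 across all genes. Alternatives were other scalings, DESeq2 1.42.0, limma-voom, limma on log2(FPKM + 1) or log2(FPKM + 0.1), other filters, omission of the added gene models, replicate number as a block and each library left out. The edgeR and limma steps were run on simulated data with far fewer changed genes than were called here, which checked the code alone.

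The 7 genes and the lists were chosen with earlier results of these data known. Named genes were the 7, the 3 named genes most like each target, and the extremes and those not called lower in each list. Sequences and protein relatives were not analysed here.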

Additional observations from a re-analysis of the deposited data

How the results depend on the processing

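Under the 17 alternatives, all 7 genes stayed lower in heat. PSBO, PSBP, PSBQ, psbS and lhcb1.3 passed in every one, with adjusted p of at most 0.0404. With library size alone, log2 fold changes were -1.32 for PSBO, -1.11 for PSBP, -1.36 for PSBQ, -1.73 for psbS and -2.79 for lhcb1.3. PsbW had -0.97 and PSBR -0.72 and did not pass with unfiltered log2(FPKM + 1) values in limma, and PSBR did not pass without control library 2, with log2 fold changes from -1.29 to -0.98 over the 6 left-out libraries. The cause was not tested. The psbS difference from the oxygen-evolving genes ranged from -0.87 to -0.31 over left-out libraries.

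Counts over all genes moved more. Library size alone called 7759 genes (1471 lower, 6288 higher). limma called 1459 lower and 6117 higher on log2(FPKM + 1), 1453 and 6115 on log2(FPKM + 0.1), and 1426 and 6080 without a filter. Leaving out 1 library gave 2291 to 4355 calls, with 1427 to 2464 lower and 864 to 1924 higher, the lowest without control library 2.

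With replicate number as a block, 2628 genes passed (1580 lower, 1048 higher), and all 7 genes still passed, with adjusted p up to 0.0494. Deviations from the group mean correlated at -0.13, -0.12 and -0.29 between same-numbered libraries, and no library correlated best with its own number. With 3 libraries per regime these correlations cannot tell whether same-numbered libraries shared a batch, and the labels do not say. The genes had at least 744 reads in every library.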

Other observations

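Some genes that work beside photosystem II had other values than the 7 genes, and they were chosen after their values were seen. VDE1, the violaxanthin de-epoxidase that acts with PsbS in the dissipation of excess light, had 80.3, 67.9 and 74.6 CPM in heat, against 76.7, 53.6 and 39.4 CPM in control (log2 fold change 0.39, adjusted p = 0.275, edgeR). Whether VDE1 and psbS differ in their response was not tested, since VDE1 was picked for its value. TLP40, a lumenal protein linked to the dephosphorylation of photosystem II proteins, had 90.7 ± 17.7 CPM in heat and 110 ± 51.1 CPM in control (log2 fold change -0.28, adjusted p = 0.583, edgeR).

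The genes next to the 7 in the order of protein-coding genes of the BTI_SOV_V1 assembly were also read. Of these 14 neighbours, 10 were tested, of which 1 was lower, 1 was higher and 8 did not pass, where 25.2% of all tested genes passed. The lower one, beside PSBO, stood at a log2 fold change of -0.83 (adjusted p = 0.0192, edgeR), and the higher one, beside PSBQ, 2.54 (adjusted p = 0.0348, edgeR). The neighbours beside PSBR had -0.37 and -0.54 (adjusted p = 0.0813 and 0.0522, edgeR).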
